A study of Arabidopsis thaliana with 8 samples.

Results

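Chromatin accessibility was compared between RIL149 and RIL50, a pair of Arabidopsis thaliana recombinant inbred lines from a cross of the accessions Ler and Cvi, at generation 10 of a mutation accumulation experiment. The comparison uses 4 of the 8 libraries of the series, chosen from the labels by line and generation: lineages 1 and 2 of RIL149 and lineages 1 and 2 of RIL50. The RIL149 lineage 1 library is of sublineage 2 and that of lineage 2 is of sublineage 1, while both RIL50 libraries are of sublineage 2. All of them share the tissue (shoots of seedlings 7 to 9 days old, grown at 25 °C with 16 h of light) and the Ler by Cvi background, and none received a treatment. According to the series' design text, the lines contrast in how often CG methylation changes spontaneously. The 4 libraries at generation 3, from the same lineages of the same lines and all of sublineage 1, serve below as a second look at regions chosen at generation 10. Generations are those of the labels, while the names of the deposited lists carry lower generation numbers.

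In ATAC-seq the transposase Tn5 inserts sequencing adapters where DNA is not covered by nucleosomes, so a pile of inserted fragments marks open chromatin. In plants such sites lie mainly at the ends of genes, where transcription factors and the transcription machinery bind, and few lie in the compact chromatin around centromeres. A recombinant inbred line is a mosaic of its parents' genomes made nearly uniform by selfing, so each stretch of chromosome is of Ler or of Cvi origin, and at any locus the lines carry either the same or different parental alleles. The reads were mapped to the TAIR10 build, which comes from the accession Col-0. A parental allele that differs in sequence from Col-0 can therefore gain or lose a listed peak without a difference in openness, and this cannot be told apart from a difference in openness in these lists.

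The deposited data are 1 peak list per library. RIL149 had 19542 and 21540 nuclear peaks (lineages 1 and 2), against 18896 and 16952 in RIL50. Both RIL149 values lay above both RIL50 values, with a mean of 20541 ± 1413 for RIL149 against 17924 ± 1375 for RIL50 (SD, n = 2 each). A two-sided exact permutation test over the 6 possible arrangements gave p = 0.333, the smallest value that 2 libraries against 2 can give, so neither a library measure nor a single region could pass a threshold of 0.05 in this test. Peaks covered 7.18 and 7.56 Mb in RIL149 and 7.46 and 5.56 Mb in RIL50 (exact permutation p = 0.667), and the groups overlapped. Median peak width was 294 and 282 bp in RIL149 and 311 and 271 bp in RIL50 (exact permutation p = 1). The fold enrichment that the authors' peak caller gave each peak, the pileup at the summit over the local background, had medians of 4.70 and 4.78 in RIL149 and 4.05 and 5.06 in RIL50 (exact permutation p = 1). These folds are the authors' values and are used to describe and filter peaks. The background pileup recovered from the lists, a stand-in for depth, was 13.9 and 20.6 in RIL149 and 20.5 and 8.88 in RIL50. The background pileup thus differed more within each line than between the line means. A single such value per library gave back the listed p within 1% for 62.9% to 69.2% of its peaks, so it is a rough guide to depth. An unlisted peak was only not detectable at the depth of its library. The tissue is a mixture of cells, in which an opening in fewer cells and a weaker opening in all cells cannot be told apart. The labels do not say whether a library came from 1 plant or a pool, so the p-values speak only of the spread among these 4 libraries.

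Most accessible regions were common to the lines. Merging peaks that overlapped by 1 bp or more gave 23230 regions, and 14250 of them (61.3%) held a peak in all 4 libraries. The peaks in these shared regions were the stronger ones: the median over regions of the lowest fold was 4.56, against 2.75 in regions held by both RIL149 libraries alone and 2.88 in those held by both RIL50 libraries alone. The labelled tissue was checked against genes that shoots use. End peaks were found at 20 and 20 of 20 photosynthesis genes in the RIL149 libraries and at 20 and 19 in the RIL50 libraries. The light-harvesting gene LHCA4 had folds of 18.8 and 20.8 in RIL149 and 15.6 and 20.6 in RIL50, and the gene of a small subunit of Rubisco, RBCS1A, had 14.4 and 16.8 in RIL149 and 13.3 and 16.0 in RIL50. The exception was LHCB3, another light-harvesting gene, with folds of 3.49 and 4.53 in RIL149 and 3.95 in RIL50 lineage 1 and no peak in RIL50 lineage 2, the library with the lowest background pileup. All 8 housekeeping genes examined, ACT2 and UBQ10 among them, had end peaks in all 4 libraries.

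Of 10 root identity genes, 2 and 5 had an end peak in the RIL149 libraries and 5 and 4 in the RIL50 libraries. PLT1, PLT2, RHD6, SMB and BRN2, transcription factors of the root meristem, root hairs and root cap, had none in any of the 4. WOX5, a stem cell regulator of the root, EXPA7, a root hair expansin, and BRN1, a root cap factor, had a peak in RIL149 lineage 2 and in both RIL50 libraries, but not in RIL149 lineage 1. At EXPA7 the nearest peak of RIL149 lineage 1 lay 1005 bp away, just outside the end window of 1000 bp. CASP1 had an end peak in all 4 libraries, and COBL9 had one in all but RIL50 lineage 2. Whether the lower count in RIL149 lineage 1 bears on the results below was not tested.

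The bases covered by peaks were not much more alike within a line than between lines. The Jaccard index, the shared length over the joint length, was 77.4% between the RIL149 libraries and 66.2% between the RIL50 libraries. Between lines it was 69.7% and 64.4% for RIL149 lineage 1 with RIL50 lineages 1 and 2, and 70.6% and 64.4% for RIL149 lineage 2 with the same RIL50 libraries. Both RIL149 libraries were thus closer to RIL50 lineage 1 than the RIL50 libraries were to each other. The mean was 71.8% over the 2 pairs within a line and 67.3% over the 4 pairs between lines, a difference of 4.55 percentage points. It was -1.26 points without RIL149 lineage 1 and -0.802 points without RIL149 lineage 2, when the RIL50 pair is the only one left within a line, and 13.0 points without RIL50 lineage 1.

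Regions held by both libraries of one line and neither of the other were counted as line-specific. There were 1539 only in RIL149 (6.63% of all regions) and 355 only in RIL50 (1.53%). Many of them were weak peaks. With a lowest fold of at least 4 over the 2 libraries that hold the region, 246 remained only in RIL149 (1.06%) and 90 only in RIL50 (0.387%). The regions nearest this limit had lowest folds of 4.02 (inside) and 3.98 (outside) among those only in RIL149, and of 4.05 and 3.95 among those only in RIL50. At a lowest fold of 8 or more there were 41 and 24. With the 16952 strongest peaks of each library, RIL149 alone held 813 regions and RIL50 alone 711, and with a lowest fold of at least 4 they held 267 and 116. At equal list length the counts over all line-specific regions were thus closer, while those of the stronger regions kept a similar ratio. With folds scaled to the library median, the limit of 4 left 209 regions only in RIL149 and 109 only in RIL50, so these counts also move with the fold scale. With 1 library of a line left out the rule is easier to meet. The count only in RIL149 was then 3109 without RIL149 lineage 1 and 3368 without RIL50 lineage 1, and the count only in RIL50 was 1236 without RIL50 lineage 2, 807 without RIL149 lineage 2 and 612 without RIL50 lineage 1. Of the stronger regions, 461 were only in RIL149 without RIL149 lineage 1 and 557 without RIL50 lineage 1, and 149 were only in RIL50 without RIL50 lineage 1.

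**Figure D1:**
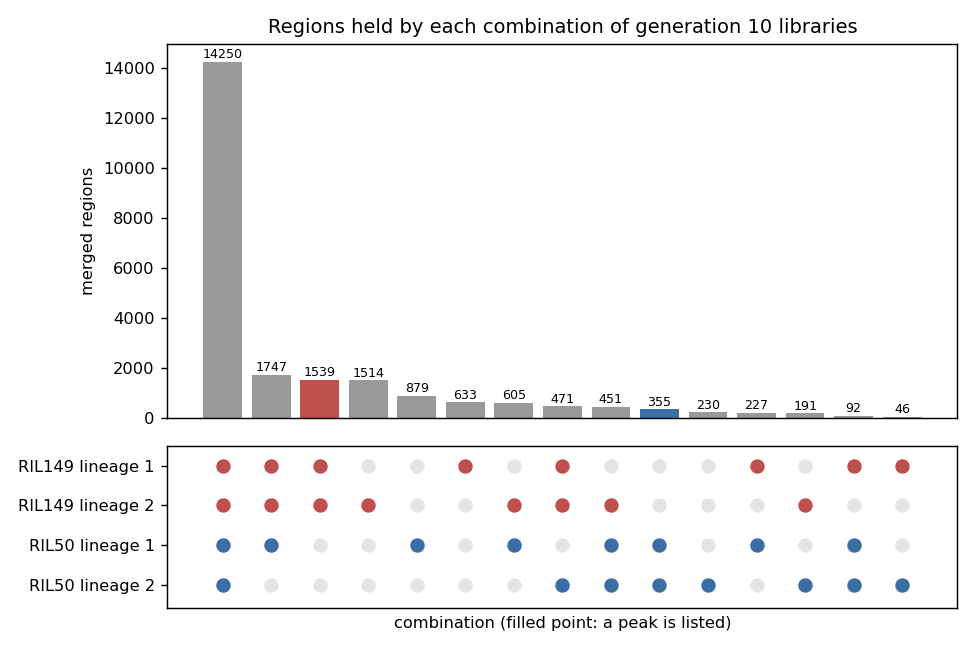
Numbers of merged regions (vertical axis) held by each combination of the 4 generation 10 libraries. The 14250 regions of all 4 libraries are the largest class, and those held by both RIL149 libraries alone (1539) outnumber those held by both RIL50 libraries alone (355).

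The other combinations show how much of this follows single libraries. Next to the regions of all 4 libraries, the most frequent combination was absence from RIL50 lineage 2 alone, with 1747 regions. Peaks of RIL149 lineage 2 alone made 1514 regions, against 633 for RIL149 lineage 1 alone, 879 for RIL50 lineage 1 alone and 230 for RIL50 lineage 2 alone. The library pair of RIL149 lineage 2 and RIL50 lineage 1, which come from different lines and have the highest background pileups, held 605 regions that neither of the others had. That is more than the 355 held by both RIL50 libraries alone.

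Among regions only in RIL149 beside a gene with a symbol, the 12 strongest had lowest folds from 7.79 to 13.0. At ZAT11, a zinc-finger transcription factor gene, the region at chromosome 2, 15705888 to 15706298, had folds of 13.0 and 13.0 in RIL149 and no listed peak in RIL50. At ARO4, which encodes an armadillo repeat protein (chromosome 3, 9768618 to 9769308), the folds were 11.6 and 12.9 in RIL149, with none listed in RIL50. NAPRT2, a gene of the salvage route to NAD (chromosome 2, 9971520 to 9971781), had 11.2 and 11.9 in RIL149 and none listed in RIL50. In these regions the folds of the RIL149 libraries lay close to each other, and the fold of any unlisted signal in RIL50 is not known. RABA5a, a Rab GTPase gene, LBD26, of the LOB-domain transcription factors, and ATOZI1, named for its induction by ozone, followed with folds of 10.1 to 13.4 over the RIL149 libraries. DES1, a cysteine desulfhydrase gene that makes hydrogen sulfide, had 9.74 and 9.71 in RIL149 over a region of 850 bp whose middle lay inside the gene. The call at DES1 was lost where a single peak had to cover at least 50% of the region. PUM21, of the Pumilio family of RNA-binding proteins, and AIG2, named for induction by a bacterial effector, had folds of 7.79 to 8.52 over the RIL149 libraries.

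QQS, an orphan gene that affects starch and protein content and whose DNA methylation is known to vary between wild accessions, held a pair of regions only in RIL149. The stronger (chromosome 3, 12349511 to 12349852, in a gene-poor window) had folds of 9.94 and 11.7 in RIL149, and the weaker (12348875 to 12349109) had 3.36 and 4.12 in RIL149. Neither was listed in RIL50. RLP42, which encodes a receptor-like protein that detects fungal endopolygalacturonases, had folds of 8.46 and 9.65 in RIL149 over 615 bp with its middle inside the gene (chromosome 3, 9119402 to 9120016) and none in RIL50. Receptor-like protein genes have close relatives, so read placement there is uncertain.

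The strongest regions only in RIL50 had folds up to 23.7. In the region nearest EMB1075, which encodes a serine decarboxylase needed for embryo development, no peak was listed in RIL149 and the folds were 17.6 and 23.7 in RIL50 (chromosome 1, 16489065 to 16489277, in a gene-poor window). The middle of the region lay inside the pseudogene AT1G43715, 709 bp from EMB1075. BGLU9, a beta-glucosidase gene (chromosome 4, 13860513 to 13861218), had none in RIL149 and 13.8 and 16.2 in RIL50. The microRNA gene MIR8171 (chromosome 2, 16890337 to 16890966) had none in RIL149 and 11.2 and 17.6 in RIL50. In these regions the RIL50 lineage 2 fold was the higher one, as was that library's median. ACS1, a gene for an enzyme of the ethylene pathway, and WIN2, a protein phosphatase gene whose product binds a bacterial effector, had folds of 10.4 to 12.1 over the RIL50 libraries. Folds of 6.37 to 13.7 over the RIL50 libraries were found by GDPD4, of the glycerophosphodiester phosphodiesterases, PEX10, a peroxisome biogenesis factor, RRA1, an arabinosyltransferase of the cell wall, and PRP40B, a pre-mRNA processing factor. The middle of the region by PEX10 lay inside the noncoding RNA gene AT2G26355, 824 bp from PEX10. That by BGLU9 lay inside the noncoding RNA gene AT4G07905, and that by ACS1 lay 1053 bp from the gene.

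**Figure D2:**
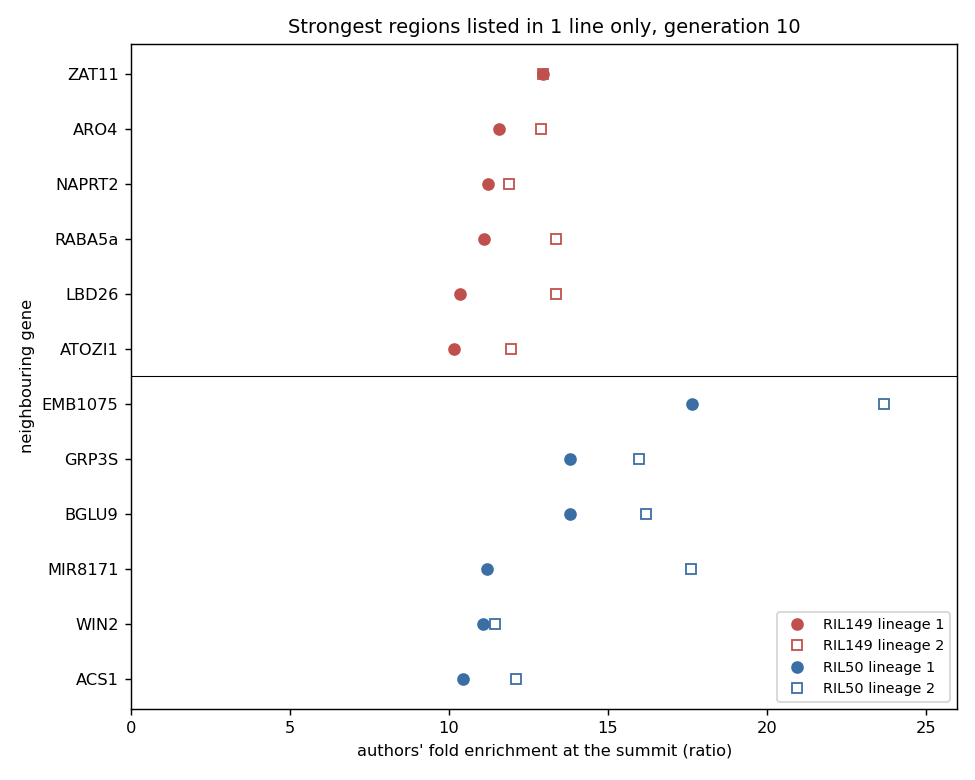
Fold enrichment (horizontal axis, the authors' values) of the 6 strongest line-specific regions of each line beside a gene with a symbol, with 1 point per library of the line that holds the region (circles for lineage 1, squares for lineage 2). Regions only in RIL149 stand above the line and those only in RIL50 below it. The region by ZAT11 has folds of 13.0 and 13.0 in RIL149 and no peak in RIL50, and the region by EMB1075 has no peak in RIL149 and folds of 17.6 and 23.7 in RIL50.

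By the lowest fold over the libraries that hold it, the strongest region of each line was at a locus that the gene table lists without a symbol. In RIL50 the region by EMB1075 came next by this measure, and its fold of 23.7 was the highest single one. Only in RIL149, the region by AT4G20690 (chromosome 4, 11097818 to 11098167) had folds of 25.3 and 24.7 and that nearest AT3G29120 (chromosome 3, 11097258 to 11097642) had 23.8 and 23.1. A region with no gene beside it in a gene-poor window (chromosome 1, 16145538 to 16145788) had 19.4 and 20.5 in RIL149. Only in RIL50, the region nearest AT1G05313 (chromosome 1, 5975496 to 5975741) had 18.2 and 20.9, and that by AT1G52905 (chromosome 1, 19706414 to 19706878) had 16.4 and 18.9. The region of AT1G52905 had a peak of fold 5.55 in RIL149 lineage 1 at generation 3. Of the stronger line-specific regions, 73 of 246 only in RIL149 and 33 of 90 only in RIL50 lay next to a gene with a symbol.

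At one gene the lines had strong peaks side by side in opposite directions. GRP3S, a short glycine-rich protein gene, had a region only in RIL149 at chromosome 2, 1968792 to 1968918, with folds of 9.34 and 9.90. A region only in RIL50 lay before it, at 1968287 to 1968565, with folds of 13.8 and 16.0 in RIL50. The gap between the 2 regions was 226 bp. Within 1 kb of each other there were 14 such opposite pairs of line-specific regions in all, beside 66 pairs of the same line. In 2 of the 14 both regions had folds of at least 4, at GRP3S and at RPP5.

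RPP5, a gene of the nucleotide-binding leucine-rich repeat (NLR) family of intracellular immune receptors, had a region only in RIL149 at chromosome 4, 9545699 to 9545983, with folds of 5.44 and 5.04. Its region only in RIL50 lay at 9544108 to 9544774, with folds of 7.07 and 9.01. The same cluster of receptor genes on chromosome 4 held further regions only in RIL50. RPP4, which confers resistance to downy mildew, had a region with no peak in RIL149 and folds of 4.93 and 7.98 in RIL50 (9495757 to 9496077) and a weaker one beside it, with none in RIL149 and 3.07 and 2.93 in RIL50. SNC1, known from a gain-of-function allele with constant defence, had none in RIL149 and 4.75 and 5.43 in RIL50 (9499112 to 9499462). Elsewhere, RPP1, another downy mildew resistance gene (chromosome 3, 16092631 to 16092846) had none in RIL149 and 2.37 and 3.85 in RIL50. RLM1, a receptor gene of resistance to a fungal pathogen, went the other way, with 5.68 and 7.38 in RIL149 (chromosome 1, 23783821 to 23784330) and none in RIL50. NLR genes stand in clusters of close copies that differ strongly between accessions, so read placement is uncertain at all of these.

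Counted over the list, 2 of 19 NLR genes had a region only in RIL149 in the gene or within 1 kb of it, and 5 of 19 had one only in RIL50. Over all 27444 protein-coding genes, 6.53% had such a region only in RIL149 and 1.41% only in RIL50. Of 14 genes of cell surface immune receptors, 3 had a region only in RIL149: RLP42, RLP23, a receptor-like protein for a microbial peptide (folds 2.82 and 3.93 in RIL149), and SOBIR1, the kinase that such proteins need (2.55 and 2.36 in RIL149). None of the 14 had one only in RIL50. Of 13 genes of glucosinolate and camalexin metabolism, 2 had a region only in RIL149: PAD3, which makes the last step of camalexin synthesis (3.09 and 3.56 in RIL149), and CYP79B2, an enzyme of indole glucosinolate and camalexin synthesis (3.02 and 2.91 in RIL149). QQS was the 1 such gene among 14 of flowering, dormancy and known natural variation. The lists of CG methylation maintenance, photosynthesis, root identity, cold response and housekeeping genes had no line-specific region, and over the 112 genes of all 9 lists 8 held a region only in RIL149 and 5 held one only in RIL50. The members were not tested as a group.

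Where the rule is applied to whole genes and their end windows (1000 bp outside to 200 bp inside either end), 921 protein-coding genes had end peaks only in RIL149 (3.36%), 174 had them only in RIL50 (0.634%), and 14713 (53.6%) had them in all 4 libraries. The count only in RIL149 was 2049 without RIL50 lineage 1 and 1584 without RIL149 lineage 1, and the count only in RIL50 was 444 without RIL149 lineage 2 and 440 without RIL50 lineage 2. Among list members, RLP23, RLP42, PAD3 and QQS had end peaks only in RIL149 and RPP4 only in RIL50, 4 and 1 of 112 genes, beside the 3.36% and 0.634% of all genes. SNC1, SOBIR1 and CYP79B2 had end peaks in all 4 libraries beside their line-specific regions. RPP5 also had end peaks in all 4, but the strongest were its opposite line-specific regions themselves. Their folds were 5.44 and 5.04 in RIL149 and 7.07 and 9.01 in RIL50. RLM1 had end peaks in all 4 as well, and its strongest in RIL149 (5.68 and 7.38) was its line-specific region. At SNC1 the strongest end peak had folds of 16.3 and 16.2 in RIL149 and 17.5 and 16.6 in RIL50. The region of RPP1 lay in the gene and outside its end windows.

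Genes that maintain CG methylation showed no presence difference. MET1, the maintenance DNA methyltransferase, had end peaks with folds of 10.5 and 10.8 in RIL149 and 6.79 and 6.98 in RIL50. DDM1, a chromatin remodeller that this methylation requires, had 7.19 and 9.30 in RIL149 and 6.37 and 8.60 in RIL50. The fold at MET1 was higher in both RIL149 libraries, while the ranges at DDM1 overlapped. These folds are as deposited. Over all shared regions the deposited folds had medians of 5.78 and 6.37 in RIL149 and 4.93 and 5.67 in RIL50. What part this scale has in the difference at MET1 was not tested. The 5 VIM genes, whose products recognise hemimethylated DNA, had no end peak in any of the 4 libraries. The nearest peak to VIM2 lay 5742 and 5743 bp away in RIL149 and 5759 and 5750 bp away in RIL50. The nearest to VIM4, a close copy of VIM2, lay 11762 and 11763 bp away in RIL149, but 1374 bp away in RIL50 lineage 1 and 11770 bp away in RIL50 lineage 2. DMS3, a component of RNA-directed DNA methylation that was singled out after its values were seen, had a region only in RIL149 (chromosome 3, 18255696 to 18256008), with folds of 5.91 and 8.57 in RIL149 and none in RIL50.

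The generation 3 libraries took no part in choosing these regions. They descend from the same lines, and the generation 10 libraries need not stem from the plants sampled then. Of the 355 regions only in RIL50 at generation 10, 217 (61.1%) had the same pattern, 2 of 2 against 0 of 2, at generation 3, and among the 90 stronger ones 85 (94.4%) did. Of the 1539 regions only in RIL149, 171 (11.1%) had the same pattern at generation 3, and among the 246 stronger ones 118 (48.0%) did. Over all 23230 regions, the generation 3 lists gave the pattern only in RIL149 in 0.938% and only in RIL50 in 7.39%. The shares of line-specific regions with the same pattern were thus above the share over all regions in both directions. None of the 355 regions only in RIL50 had the opposite pattern at generation 3, beside the 0.938% of all regions. Of the 1539 only in RIL149, 89 had it, beside the 7.39% of all regions. A RIL50 library at generation 3 had a peak in 660 (42.9%) of the regions only in RIL149, while a RIL149 library at generation 3 had one in 24 (6.76%) of the regions only in RIL50. Both shares were below those over all regions, 82.8% for a RIL50 library and 71.7% for a RIL149 library.

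The share that had the same pattern at generation 3 differed with the strength of the peak. Among regions only in RIL149, the share with the same pattern was 3.32% at a lowest fold under 3, 6.36% from 3 to 4, 32.3% from 4 to 6, 73.7% from 6 to 8 (28 of 38) and 87.8% at 8 or more (36 of 41). Among regions only in RIL50 it was 38.7% under 3, 80.3% from 3 to 4, 96.1% from 4 to 6 and 91.7% at 8 or more (22 of 24), with 14 of 15 from 6 to 8. In RIL149 the weak regions were thus rarely line-specific at the earlier generation, and the strong ones mostly were. The generation 3 libraries of RIL149 had shorter lists, 17132 and 13186 peaks, against 19193 and 18447 in RIL50. Of the 246 stronger regions only in RIL149, 208 had a peak in RIL149 lineage 1 at generation 3 and 146 in lineage 2. What part these list lengths have in the lower shares of RIL149 was not tested.

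**Figure D3:**
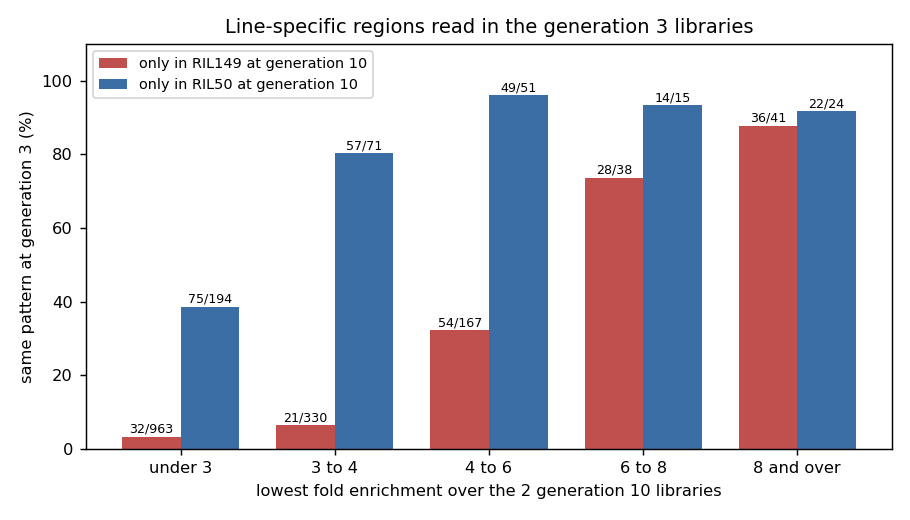
Share of line-specific regions of generation 10 with the same pattern at generation 3 (vertical axis, percent), by the lowest fold at generation 10 (horizontal axis), for regions only in RIL149 and only in RIL50. Numbers above the bars are regions with the same pattern over all regions of the bin. Regions only in RIL149 reach 87.8% at folds of 8 or more, and regions only in RIL50 already have 80.3% at folds of 3 to 4.

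All but one of the regions named above for their strength beside a gene with a symbol had the same pattern at generation 3. At ZAT11 the generation 3 folds were 8.52 and 6.35 in RIL149 with none in RIL50, and at ARO4 they were 11.0 and 7.75 in RIL149 with none in RIL50. By EMB1075 there was none in RIL149 and 22.4 and 16.3 in RIL50. The exception was the region only in RIL149 at GRP3S, which had no peak in any generation 3 library. The neighbouring region only in RIL50 had none in RIL149 and 19.5 and 12.4 in RIL50 at generation 3.

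Regions that are line-specific at generation 10 and were not at generation 3 are those where the presence pattern is not the same in both generations. The order of the folds between the lines can still be the same in such regions. Among those beside a gene with a symbol, the strongest only in RIL149, after that at GRP3S, lay by MES9, a methylesterase gene of salicylate metabolism (chromosome 4, 17494044 to 17494525). It had folds of 7.59 and 8.19 in RIL149 and none in RIL50 at generation 10, and at generation 3 peaks in all 4 libraries, 5.79 and 3.99 in RIL149 and 2.57 and 2.55 in RIL50. The order of the lines at MES9 was thus the same at generation 3. LOL2, of the LSD1-like zinc-finger family linked to cell death, had 6.38 and 6.98 in RIL149 and none in RIL50 at generation 10, and 3.60 in RIL149 lineage 1 alone and 2.78 and 1.87 in RIL50 at generation 3. THI2.2, a thionin gene, TBL33, of the family that acetylates cell wall polymers, and SYP72, a syntaxin gene, had folds of 5.51 to 6.80 over the RIL149 libraries and a peak only in RIL149 lineage 1 at generation 3, from 3.44 to 4.61. ATCOAE, of coenzyme A synthesis, had 5.53 and 5.58 in RIL149. At generation 3 it had 5.46 and 5.80 in RIL149, and its exception was a peak of 1.92 in RIL50 lineage 2. CRK29, a cysteine-rich receptor-like kinase gene next to the pseudogene AT4G21420, in which the region had its middle, had 5.51 and 5.69 in RIL149, with 4.14 in RIL149 lineage 1 and 2.67 in RIL50 lineage 2 at generation 3.

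Only in RIL50 and beside a gene with a symbol, the strongest region without the same pattern at generation 3 had a lowest fold of 4.91. It lay by AGP2, an arabinogalactan protein gene, and had none in RIL149 and 5.11 and 4.91 in RIL50. At generation 3 it had a peak of 1.93 in RIL149 lineage 1, beside 4.42 and 5.01 in RIL50. RD20, a caleosin gene induced by drought, had none in RIL149 and 3.35 and 3.44 in RIL50 and no peak at generation 3, as was the case for LCR10, a small cysteine-rich protein gene (3.21 and 4.65 in RIL50), and SKS6, of the multicopper oxidase-like SKU5 family (2.88 and 3.14 in RIL50). The others were PAM68, an assembly factor of photosystem II, ADF1, an actin depolymerising factor, ILR2, of auxin conjugate sensitivity, and ABCB1, an auxin transporter, with folds of 2.90 to 4.29 over the RIL50 libraries and a peak in 1 RIL50 library at generation 3. The midpoints of the regions by RD20 and PAM68 lay inside neighbouring genes, AT2G33370 and AT4G19095, and that by LCR10 inside the pseudogene AT2G15540. Loci without a symbol held stronger ones, among them the region at AT1G52905 given above. At AT5G59670 (chromosome 5, 24041268 to 24041573) the folds were 8.87 and 11.9 in RIL149 with none in RIL50, and no generation 3 library had a peak. At AT5G22690 (chromosome 5, 7541061 to 7541385) there was none in RIL149 and 8.56 and 9.11 in RIL50. At generation 3 RIL149 lineage 1 had a peak of 7.12 there, beside 10.3 and 7.20 in RIL50.

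In the 14250 shared regions, the folds of the lines were set side by side. They were counted as separated where the lower fold of one line was above the higher fold of the other and the means differed by at least 1.5 times. RIL149 was higher in 962 regions (6.75%) and RIL50 in 168 (1.18%). This balance depends on the scale of each library. The median fold over the shared regions was 5.78 and 6.37 in RIL149 and 4.93 and 5.67 in RIL50, and the median log2 ratio of RIL149 over RIL50 was 0.15. With each library's folds divided by its own median, RIL149 was higher in 319 (2.24%) and RIL50 in 424 (2.98%), so the share of calls with RIL149 higher was 42.9% in place of 85.1%. Separated under both scales were 319 regions with RIL149 higher and 168 with RIL50 higher, and all regions named next are among these. With a library left out, RIL149 was higher in 1600 regions without RIL149 lineage 1 and in 2468 without RIL50 lineage 2, and RIL50 in 330 without RIL149 lineage 2 and in 401 without RIL50 lineage 1.

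With RIL149 higher, the widest gap of all was at AT2G35920 (chromosome 2, 15074859 to 15075605), which has no symbol in the gene table, with folds of 11.2 and 12.1 in RIL149 and 2.37 and 2.73 in RIL50. Among regions beside a gene with a symbol it was by AE7, a gene of iron-sulfur cluster assembly (chromosome 1, 25599227 to 25599565), with folds of 16.8 and 17.7 in RIL149 and 4.98 and 5.67 in RIL50. GlcNAc1pUT2, which makes UDP-N-acetylglucosamine, had 6.18 and 8.00 in RIL149 and 2.14 and 2.33 in RIL50. The microRNA gene MIR863 had 13.1 and 14.3 in RIL149 and 4.37 and 5.46 in RIL50. At AE7 and MIR863, the RIL149 libraries were also above the RIL50 libraries at generation 3, with 11.2 and 10.5 in RIL149 against 7.93 and 4.95 in RIL50 at AE7, and 10.2 and 6.20 against 6.18 and 2.93 at MIR863. The other named regions with RIL149 higher lay by IVD, isovaleryl-CoA dehydrogenase of leucine breakdown (7.32 and 7.91 in RIL149, 3.12 and 3.04 in RIL50), GAMMA-VPE, a vacuolar processing protease (11.2 and 11.2 in RIL149, 5.12 and 4.55 in RIL50), PAP12, a secreted acid phosphatase, MDA1, of the mTERF family of organelle gene expression, and the transporter gene ABCA3. The regions named for GAMMA-VPE, PAP12 and MDA1 had their middle inside neighbouring genes without a symbol, AT4G32950, AT2G27180 and AT4G14600. At MDA1, ABCA3 and IVD the RIL149 libraries were not both above the RIL50 libraries at generation 3, where the folds at MDA1 were 5.55 and 3.84 in RIL149 and 7.00 and 5.33 in RIL50.

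With RIL50 higher, the widest gap of all was at AT3G23955 (chromosome 3, 8656412 to 8657705), with folds of 3.90 and 3.75 in RIL149 and 17.2 and 19.0 in RIL50. Beside a gene with a symbol it was by ATRER1C1, of the RER1 family that retrieves proteins to the endoplasmic reticulum (chromosome 2, 9916037 to 9917065, with its middle inside the neighbouring gene AT2G23300), with folds of 4.37 and 3.05 in RIL149 and 15.3 and 15.1 in RIL50. ATGA2OX3, a gibberellin 2-oxidase family gene of gibberellin inactivation, had 3.76 and 3.52 in RIL149 and 11.5 and 12.7 in RIL50. GLDH, the last enzyme of ascorbate synthesis, had 2.62 and 2.73 in RIL149 and 7.12 and 8.20 in RIL50. At ATRER1C1, ATGA2OX3 and GLDH the RIL50 libraries were also higher at generation 3, where GLDH had no peak in RIL149 and 11.0 and 6.25 in RIL50. PGR5, of cyclic electron flow around photosystem I, had 2.42 and 3.19 in RIL149 and 6.56 and 6.78 in RIL50. ABCB1, whose weak region only in RIL50 was given above, had 3.63 and 3.61 in RIL149 and 8.47 and 10.1 in RIL50 in the shared region next to it. TRM23, of the TON1-recruiting motif family, and WAVE5, a regulator of actin nucleation, also had higher folds in RIL50.

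**Figure D4:**
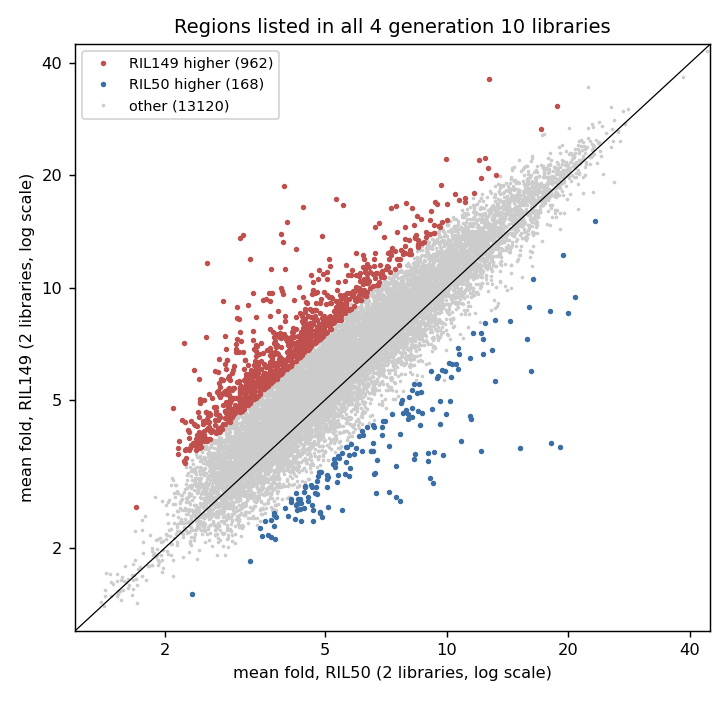
Mean fold in RIL149 (vertical axis) against mean fold in RIL50 (horizontal axis, both log scales) for the 14250 shared regions, 1 point per region. Coloured points are regions with separated folds as deposited, 962 with RIL149 higher (red, above the diagonal) and 168 with RIL50 higher (blue, below it).

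The generation 3 folds were read for the same regions. Of the 168 regions with RIL50 higher, 78 had a peak in all 4 generation 3 libraries, and in 74 of them (94.9%) both RIL50 folds were above both RIL149 folds, with a median ratio of RIL149 over RIL50 of 0.605 at generation 10 and 0.487 at generation 3. Of the 962 with RIL149 higher, 746 had a peak in all 4, and in 107 (14.3%) the order was the same, with a median ratio of 1.65 at generation 10 and 0.917 at generation 3. Over all 11018 shared regions with a peak in all 4 generation 3 libraries, both RIL149 folds were above both RIL50 folds in 493 (4.47%) and below them in 4274 (38.8%). The median ratio over these was 1.11 at generation 10 and 0.817 at generation 3, so the scale of the folds itself lay on different sides of 1 in the generations.

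Widths were compared by the same rule. Peaks were wider in RIL149 in 720 shared regions (5.05%) and in RIL50 in 217 (1.52%). With widths divided by each library's median these were 569 and 360. Without RIL50 lineage 1, 2294 regions were wider in RIL149. RIL50 was wider in 1031 without RIL50 lineage 2, in 509 without RIL149 lineage 2 and in 393 without RIL149 lineage 1. In 215 regions with a wider peak in RIL149 the fold was also separated with RIL149 higher, and in 48 with a wider peak in RIL50 the fold was separated with RIL50 higher. The widest gaps, chosen after their values were seen, included NIT1, a nitrilase gene, with 654 and 757 bp in RIL149 and 193 and 142 bp in RIL50. PGR5 went the other way, with 211 and 292 bp in RIL149 and 1017 and 932 bp in RIL50. The neighbouring cold response transcription factor genes CBF2 (155 and 151 bp in RIL149, 417 and 383 bp in RIL50) and CBF3, also called DREB1A (129 and 153 bp in RIL149, 444 and 378 bp in RIL50), both had wider peaks in RIL50. The fold ranges at CBF2 were close, 6.32 and 6.15 in RIL149 and 6.88 and 8.03 in RIL50.

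Summits were in nearly the same place in the lines. The median distance between the summits of a shared region was 11 bp between the RIL149 libraries, 17 bp between the RIL50 libraries and 16 to 19 bp over the 4 pairs between lines. Distances over 200 bp made up 2.37% of shared regions within RIL149, 2.93% within RIL50 and 3.09% to 3.38% between lines. In 73 of 14250 shared regions (0.512%) the summits lay within 50 bp in each line and over 200 bp apart between the lines. The strongest of these by a gene with a symbol was by NS1, an asparaginyl-tRNA synthetase gene, where the summits were 297 bp apart and the folds were 9.81 and 12.8 in RIL149 and 9.30 and 10.5 in RIL50. JR1, a jasmonate-responsive gene, and GLR3.4, a glutamate receptor-like channel gene, had summits 439 and 949 bp apart.

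Along the chromosomes, the stronger regions only in RIL149 made up 1.66% of all regions on chromosome 3 (75 regions) and 0.839% on chromosome 1 (51 regions), and the stronger regions only in RIL50 0.645% on chromosome 4 (23 regions) and 0.226% on chromosome 5 (12 regions). The 500 kb window with the most stronger line-specific regions was on chromosome 1, 21500001 to 22000000, with 8 of 72 regions. A gene-poor window on the same chromosome, 16000001 to 16500000, with EMB1075 in it, had 7 of 25. Long stretches held none: the first 3000000 bp of chromosome 3 had 747 regions, and chromosome 5 from 24500001 to 27000000 had 746, with 0 stronger line-specific regions in each. Neighbouring stronger regions less than 10 kb apart were of the same line in 26 of 34 pairs, and those farther apart in 176 of 297.

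The positions of the stronger line-specific regions were set against those of shared regions. Outside protein-coding genes and their end windows were 58 of 246 (23.6%) only in RIL149 and 23 of 90 (25.6%) only in RIL50, against 11.1% of the regions of all 4 libraries. Gene-poor windows, with fewer than 50% of the median number of protein-coding genes per 500 kb, held 40 (16.3%) of those only in RIL149 and 10 (11.1%) of those only in RIL50, against 2.90%. Pseudogene loci were touched by 13 (5.28%) and 3 (3.33%), against 1.11%. The 1069 regions held by 1 RIL149 and 1 RIL50 library, which have the same prevalence, gave 14.5% outside genes and ends, 3.74% in gene-poor windows and 1.22% at pseudogenes. These shares are a description, since neighbouring regions are not independent and the libraries are few. With no fold limit, as for those 1069, the shares outside genes and ends were 17.5% over the 1539 regions only in RIL149 and 24.2% over the 355 only in RIL50. Gene-poor windows then held 7.02% and 10.1%, and pseudogenes 1.69% and 3.10%.

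**Figure D5:**
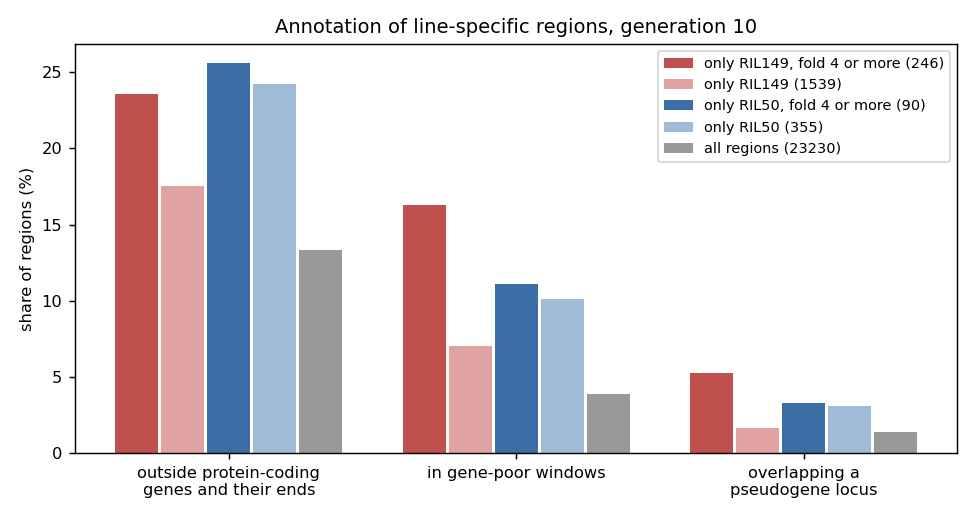
Share of regions (percent) outside protein-coding genes and their end windows, in gene-poor windows and at pseudogenes, for line-specific regions, with and without the fold limit of 4, and for all regions. The stronger regions only in RIL149 and only in RIL50 have 23.6% and 25.6% outside genes and ends, against 13.3% of all 23230 regions.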

How the data were processed

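Per the labels' protocols, nuclei from about 200 mg of shoots were tagmented with Tn5 for 30 min at 37 °C, and both ends of fragments were read over 150 bp. Tools in the submitters' processing notes are MACS2 2.2.9.1, BWA 0.7.17, Trimmomatic 0.39 and Picard, with the TAIR10 build. Settings for read shifting, mapping quality and duplicates were not given in the sources used here. Each deposited file is the peak list of 1 library. Per the file headers and format, its fold column is a ratio of pileup to local background, its score column is an integer made from q, and p and q themselves are given as −log10 values. All deposited peaks pass q of 0.05. The lists hold no read counts, so depth is known only through the background pileup solved from fold and p.

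Groups came from the labels, and the members, gene lists and rules were chosen with earlier results of these data known. Peaks on the 5 nuclear chromosomes were merged at 1 bp of overlap with Python 3.11.15 (pandas 2.3.3, numpy 2.4.6, scipy 1.17.1). Folds were described, not tested, and measures with 1 value per library got a two-sided exact permutation test. Named genes were, in each direction and among regions beside a gene with a symbol, the 12 strongest line-specific regions by the lowest fold, the 8 strongest without the same pattern at generation 3 and the 8 shared regions with the widest fold gap. List members that had a line-specific region, VIM2 and VIM4 were added, and loci without a symbol were named after their values were seen. Some genes that met these rules are not reported here. Gene positions and names are those of RefSeq (assembly TAIR10.1, table without strand), and its coordinates are not printed. In 25 of 25 bins of 5 Mb, peaks overlapped gene ends best within 250 bp of no offset. Of 114 listed genes, 112 matched. No sequences were used here, so the planned promoter motifs were not searched. The scripts were tested on simulated data. Alternatives were other overlaps, stricter q, folds of at least 2, equal list lengths, scaled folds, end windows of 500 bp and leaving out each library.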

Additional observations from a re-analysis of the deposited data

Results flagged for a closer look

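The difference in the number of nuclear peaks between the lines had opposite signs in the generations, and every library followed it. At generation 10 both RIL149 libraries had more peaks than both RIL50 libraries, with a mean difference of 2617. At generation 3 both RIL149 libraries (17132 and 13186) had fewer than both RIL50 libraries (19193 and 18447), with a mean difference of -3661. Each gave an exact permutation p of 0.333, the smallest possible. The difference between the generations was not tested. The counts of line-specific regions lay the same way: 1539 only in RIL149 and 355 only in RIL50 at generation 10, and 228 and 1846 at generation 3 with the lists of that generation merged on their own. Among stronger regions they were 246 and 90 at generation 10 and 76 and 165 at generation 3. At generation 10 the background pileup was 13.9 and 20.6 in RIL149, against 20.5 and 8.88 in RIL50. At generation 3 it was 11.8 and 12.5 in RIL149, against 8.71 and 25.3 in RIL50. Its part in these counts was not tested.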

How the results depend on the processing

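Of 124 alternatives for the counts and library measures, 90 were labelled unchanged, 28 moved the value and 6 turned its direction. Counts and the Jaccard difference were judged by limits on size, but the library measures by direction alone. The 90 include settings that could not change a value: the lineage number as a block for library measures, and the 50% of the peak described below. With equal numbers of peaks, RIL149 alone held 813 regions and RIL50 alone 711. Where a peak had to cover at least 50% of a region, an alternative chosen after seeing the data, the stronger regions were 408 and 154. Asking for 50% of the peak in place of the region changed nothing, since each peak lies inside its merged region. With scaled folds RIL149 was higher in 319 shared regions and RIL50 in 424, and with scaled widths RIL50 was wider in 360. Leaving out 1 library in turn gave 2011 to 3368 regions only in RIL149 and 447 to 1236 only in RIL50, with 312 to 557 and 98 to 149 stronger ones. Separated folds then numbered 863 to 2468 and 135 to 401, separated widths 820 to 2294 and 179 to 1031, and genes 1174 to 2049 and 226 to 444. The RIL149 minus RIL50 difference ranged from 1618 to 3616 peaks. It ranged from -0.0863 to 1.81 Mb covered, from -23 to 17 bp of median width and from -0.317 to 0.695 in median fold. The Jaccard difference ranged from -1.26 to 13.0 points. Of the 39 named line-specific regions, 37 kept their call under all 12 settings, but 6 of these could not end such a call: leaving out a library, the 50% of the peak and a fold of at least 2. The call at DES1 was lost where a peak had to cover 50% of the region, and that at ABCB1 where gaps up to 200 bp were merged. The cause of these changes was not tested, beyond the relaxed rule when a library is left out.

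With the lineage number as a replicate block, the difference of 2617 peaks gave an exact permutation p of 0.5, the smallest of the 4 arrangements. The correlation of deviations from the line means was 0.05 over 14250 shared regions. With 1 such contrast per line, it cannot show whether the lineage numbers pair libraries across lines.

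With 2 libraries per line, no read counts and unequal background pileup, whether presence calls at low folds follow depth was not tested, and a region listed in 1 line only was not detectable in the other at its depth.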
